A study of Mus musculus with 38 samples.

Results

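The histone genes on the array were followed in mouse embryos with hypomorphic Dnmt3b, that is, with reduced function of this de novo DNA methyltransferase. They were taken by symbol, as every probe for a core, linker or variant histone, and the MHC genes whose symbols begin with H2- were left out. This gave 52 probes for 47 genes, of 18300 genes with a symbol on the platform. Of these 47, 31 are clustered histone genes (6 for H1, 7 for H2A, 7 for H2B, 5 for H3 and 6 for H4) and 16 are variant histone genes (3 for H1, 9 for H2A, 2 for H2B and 2 for H3). Of the clustered genes, 24 lie on chromosome 13, 4 on chromosome 3, 2 on chromosome 11 and 1 on chromosome 6. All 47 had a value in every embryo of both tissues, so none was lost to a filter. A single probe stood for 42 genes and 2 probes for each of the other 5.

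The hypomorphic embryos numbered 5 for thymus, taken at 18.5 days post coitum (dpc) and hybridised on 18 arrays, and 5 for embryonic fibroblasts, taken at 12.5 dpc, on 20 arrays. Each array set an embryo against pooled wild-type RNA of that tissue and age, made from 5 samples, and the submitters had left out 2 thymus arrays for quality. Embryos were of a 129SvJae x C57BL/6 hybrid background. The allele pair m3/m24 is written on the thymus labels, except on 3 arrays that name the embryo alone, and for the fibroblasts the genotype is known from the series' design text only. RNA was amplified with T7 polymerase (MessageAmp kit), and each embryo was hybridised in both dye orientations. The labels do not say whether an embryo's RNA was extracted more than once, and the embryo is the replicate throughout.

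Clustered histone genes are transcribed mainly while a cell copies its DNA. Their mRNAs normally end in a stem-loop instead of a poly(A) tail, and the stem-loop binding protein Slbp and the U7 small nuclear ribonucleoprotein form that end. Variant genes such as H2az1 or H3f3b are expressed through the cell cycle, carry poly(A) tails and supply nucleosomes outside replication. Amplification primed with oligo(dT), the usual mode of such kits, picks up transcripts with a poly(A) tail, so values of clustered genes depend on their polyadenylated forms. Arrays give a ratio for each probe and no level, so how strongly a histone gene is expressed in either tissue was not measured.

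Every value below is a log2 ratio of hypomorph over wild-type pool, after each array was centred on its median. It is positive where the hypomorph is higher. That direction was read from the values, since the labels name the dyes but not the ratio, and it is therefore likely and not certain. An embryo's value is the mean of its Cy5 and Cy3 averages. Tests were made with limma against 0 over 5 embryos, with Benjamini-Hochberg adjustment over all features, and a gene is said to pass where the adjusted p is under 0.05. The pool enters as 1 control sample, so its own spread is not in these tests. Separate litters or dams are not named for the embryos. Sex was not used here, and the Y-linked gene Eif2s3y differed between embryos. In thymus its arrays were at -3.97 to -2.41 in embryo 1 and at 0.65 to 0.77 in embryo 2. In fibroblasts they were at -4.33 to -2.78 in embryo 5 and at 0.95 to 1.11 in embryo 3. Array 2 of fibroblast embryo 1 was at 0.28, while its sister arrays lay between -2.21 and -1.39. A part of sex in the values was not tested.

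Array quality varied within both tissues. Array medians as deposited ran from -0.888 on a fibroblast array to 1.14 on a thymus array. The mean correlation of an array with the others of its embryo, after removing a dye profile, was weak in parts of the thymus. There it ran from 0.073 in embryo 5 to 0.398 in embryo 2, and in fibroblasts from -0.279 to 0.626. In fibroblasts, array 4 of embryo 4 ran against the other arrays of its embryo (mean correlation of -0.279 across features). Also in fibroblasts, array 4 of embryo 1 resembled array 3 of embryo 2 at r = 0.879. The next closest arrays of different embryos, over both tissues and within a dye orientation, were thymus arrays. They were of embryos 2 and 4 (0.771) and of embryos 1 and 5 (0.741). Titles of the thymus arrays and of most fibroblast arrays begin with AYT, while those of fibroblast embryos 2 and 3 and of array 4 of embryo 1 begin with AYX or AYY. Values without these fibroblast arrays are given for a part of the genes where they change a call or move a described value by over 1.5 times. Dnmt3b itself had a mean of -0.08 ± 0.15 in thymus (adjusted p = 0.918) and of 0.11 ± 0.11 in fibroblasts (adjusted p = 0.359; limma, SD, n = 5 each), and the position of its probe relative to the mutated bases is unknown.

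Promoters of the genes on which the results turn are shown first, because a few short elements set the histone types apart. RefSeq promoter windows (GRCm38.p6) were matched by symbol for 43 of the 47 genes, with H2ax, H2bc4, H3c7 and H4c14 unmatched. The 250 bases before the annotated start were searched on both strands, reverse complements included, for 3 motifs. TATAA is the core of the TATA box. CCAAT is bound by the factor NF-Y. GGTCC is part of the H4 promoter element that the factor HINFP recognises. H2bu2, an H2B gene with the deepest decrease in thymus, lies at chr11:58948661-58948910 (plus strand), and its neighbour H2aw, an H2A gene, at chr11:58954435-58954684 (plus strand). H4c4 at chr13:23581318-23581567 (plus strand) and H4f16 at chr6:136804432-136804681 (minus strand) are H4 genes on different chromosomes whose values ran side by side. H2az2 at chr11:6444444-6444693 (minus strand) encodes a variant that was higher in fibroblasts. Capitals mark the searched letters.
H2bu2: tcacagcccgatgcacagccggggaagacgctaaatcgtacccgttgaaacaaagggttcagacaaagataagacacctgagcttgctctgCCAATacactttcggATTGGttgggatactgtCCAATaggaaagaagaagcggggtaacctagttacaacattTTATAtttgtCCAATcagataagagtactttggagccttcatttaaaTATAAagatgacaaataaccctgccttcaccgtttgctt
H2aw: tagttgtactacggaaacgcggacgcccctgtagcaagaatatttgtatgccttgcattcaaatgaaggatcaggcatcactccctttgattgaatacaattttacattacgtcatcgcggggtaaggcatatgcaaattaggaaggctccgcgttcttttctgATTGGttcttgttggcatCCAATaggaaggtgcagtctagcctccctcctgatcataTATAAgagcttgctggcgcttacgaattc
H4c4: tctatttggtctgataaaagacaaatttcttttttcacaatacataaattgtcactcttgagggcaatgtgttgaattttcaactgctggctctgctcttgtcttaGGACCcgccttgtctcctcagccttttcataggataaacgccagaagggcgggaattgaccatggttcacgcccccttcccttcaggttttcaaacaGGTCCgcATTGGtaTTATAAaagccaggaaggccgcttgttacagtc
H4f16: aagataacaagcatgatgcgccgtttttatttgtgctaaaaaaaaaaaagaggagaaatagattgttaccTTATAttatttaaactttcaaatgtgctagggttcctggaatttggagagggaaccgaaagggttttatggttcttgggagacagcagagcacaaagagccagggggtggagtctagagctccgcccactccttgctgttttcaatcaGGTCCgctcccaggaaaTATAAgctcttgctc
H2az2: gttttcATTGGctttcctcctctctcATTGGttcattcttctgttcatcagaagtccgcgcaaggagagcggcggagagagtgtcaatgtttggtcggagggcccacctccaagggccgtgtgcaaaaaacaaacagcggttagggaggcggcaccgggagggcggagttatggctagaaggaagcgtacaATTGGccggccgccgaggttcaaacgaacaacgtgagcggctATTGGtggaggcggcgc
H2bu2 had 4 CCAAT and 2 TATAA matches, H2aw 2 and 1, and H2az2 had 4 CCAAT matches and no TATAA. Both H4 windows held GGTCC close to the start. TATAA can overlap its own reverse complement, as in H4c4, and each is then counted.

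Over all matched windows, TATAA was found in 22 of 29 windows of clustered genes (75.9%) and in 3 of 15 windows of variants (20.0%), against 22.8% of all 32851 RefSeq windows. CCAAT was found in 24 of 29 clustered windows (82.8%) and 9 of 15 variant windows (60.0%), against 33.8% of all. GGTCC was in 5 of 5 H4 windows, in 1 of 6 H1, 0 of 7 H2A, 2 of 7 H2B and 1 of 4 H3 windows of the clusters, and in 39.8% of all windows. CG pairs numbered 8 in H2bu2, 11 in H2aw and 19 in H2az2, against a median of 10 over clustered, 4 over variant and 6 over all windows. A match is a description of the letters and not a binding site.

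**Figure D1:**
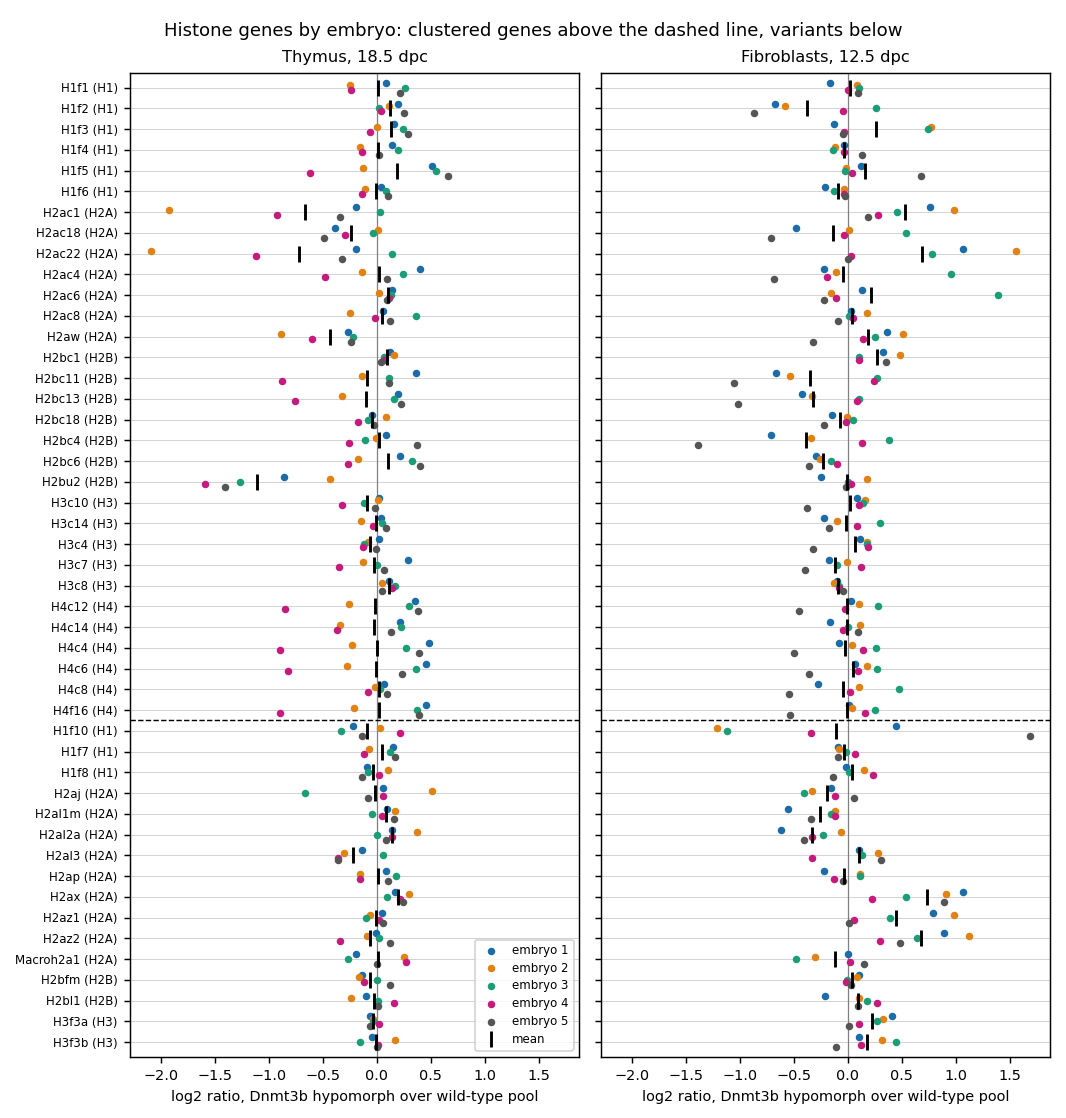
Log2 ratio of hypomorph over wild-type pool (horizontal axis) of the 47 histone genes in 5 thymus embryos (left) and 5 fibroblast embryos (right), 1 point an embryo, with the mean as a black bar. Most means lie near 0, H2bu2 lies left of 0 in all thymus embryos, and H2ax and H2az2 lie right of 0 in all fibroblast embryos.

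In thymus no histone gene passed (0 of 47), where 5 of 21949 features did (0.0228%). At an unadjusted p under 0.05, 5 histone genes were higher (background 2.69%) and 5 were lower (background 4.8%), together 21.3% of the 47, against 7.49% of all features. The median over the 47 was -0.01, against 0.01 over all features, and the means ran from -1.11 to 0.20. Signs were shared by all 5 embryos in 5 genes above 0 (background 3.53%) and in 2 below 0 (background 4.84%), together 14.9%, against 8.36%. Means beyond 0.5 in either direction were found in 3 of 47, H2bu2, H2ac22 and H2ac1, against 0.592% of all features.

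H2bu2, a member of the small Hist3 cluster on chromosome 11 that encodes an H2B, had the lowest mean of the histones. It was at -0.86, -0.44, -1.27, -1.60 and -1.41 in thymus embryos 1 to 5. All embryos lay below 0, with embryo 2 nearest to it. The mean was -1.11 ± 0.47 (SD, n = 5), which is 2.17-fold lower than the pool, with a 95% interval from -1.50 to -0.73. Its adjusted p of 0.112 (limma) does not pass, although it ranked 10th from the lowest among 21949 features. It was below 0 on all 18 arrays, between -1.99 and -0.35, and in either orientation (means of -0.99 with the hypomorph in Cy5 and -1.24 with it in Cy3). In fibroblasts the same probe gave -0.25, 0.18, 0.00, 0.03 and -0.02, a mean of -0.01 ± 0.16 (adjusted p = 0.951), with 10 arrays above 0 and 10 below.

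H2aw, the H2A gene of the same cluster, was at -0.27, -0.89, -0.22, -0.60 and -0.24 in thymus. It too lay below 0 on all 18 arrays (-0.92 to -0.04), and embryos 2 and 4 were lowest. Its mean of -0.44 ± 0.29 (n = 5) did not pass (adjusted p = 0.338). The order of embryos differs between these neighbours, since embryo 2 was nearest to 0 for H2bu2 and furthest from it for H2aw. Among the 10 nearest annotated genes around H2bu2, 6 were measured in thymus. The 5 others beside H2aw had means of 0.03 for 2810021J22Rik, 0.03 for Zfp39, -0.05 for Btnl10, 0.02 for Trim17, which lies between both histone genes, and -0.17 for Trim11, with adjusted p from 0.915 to 0.962.

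**Figure D2:**
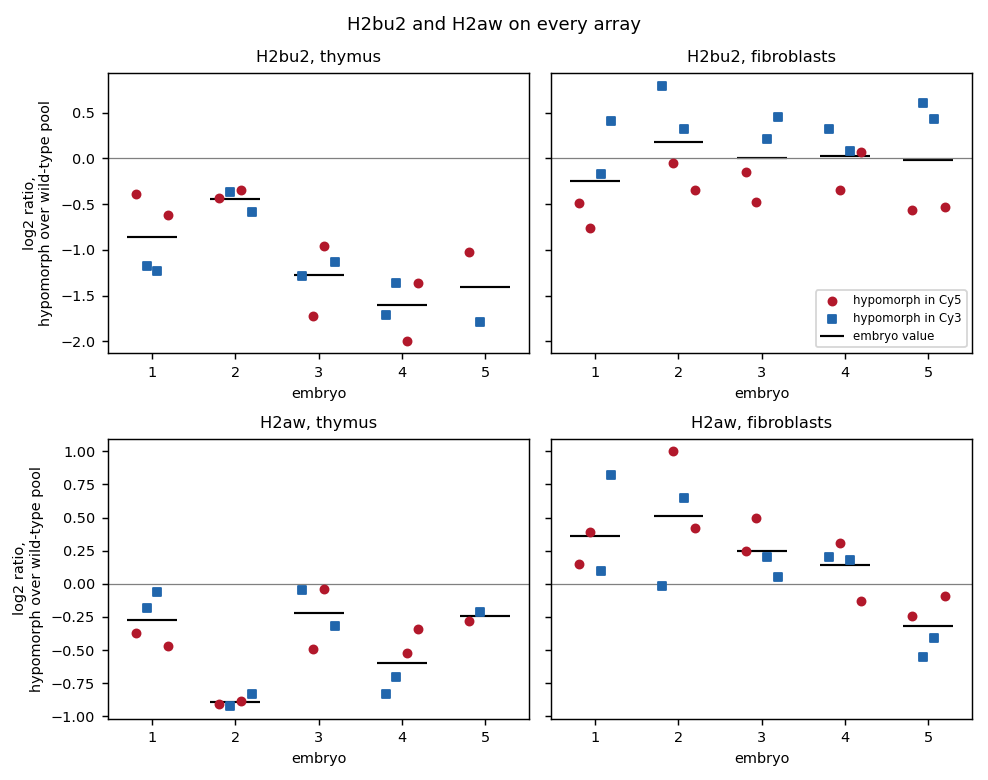
Log2 ratio (vertical axis) of H2bu2 (top) and H2aw (bottom) on every array of the 5 thymus embryos (left) and the 5 fibroblast embryos (right), by dye of the hypomorph, with the embryo's value as a black line. Both genes are below 0 on all 18 thymus arrays, and H2bu2 splits by dye around 0 in fibroblasts.

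H2ac22, a replication-dependent H2A, and H2ac1, an H2A of the clusters known from testis, had the next lowest means, and few embryos carried them. H2ac22 was at -0.19, -2.10, 0.14, -1.12 and -0.32, a mean of -0.72 ± 0.90 (adjusted p = 0.671). H2ac1 was at -0.19, -1.93, 0.03, -0.93 and -0.34, a mean of -0.67 ± 0.79 (adjusted p = 0.643). Both were lowest in embryo 2, followed by embryo 4, and just above 0 in embryo 3. The sequences of the 2 probes were not used here, so whether both read transcripts of the same H2A genes was not tested. H2ac18, an H2A of the chromosome 3 cluster, had a mean of -0.24 ± 0.22 (unadjusted p = 0.0226, limma), and H2al3, an H2A.L variant, a mean of -0.22 ± 0.18 (unadjusted p = 0.0168, limma).

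H2ax encodes the H2A variant that is phosphorylated at DNA double-strand breaks. It was at 0.17, 0.30, 0.09, 0.21 and 0.24 in thymus, above 0 in all embryos. Its mean of 0.20 ± 0.08 (1.15-fold) was the highest of the histones in this tissue and did not pass (adjusted p = 0.320). The other genes above 0 in all 5 embryos were smaller, namely H1f2, a linker histone, at 0.12 ± 0.10, H3c8, an H3 gene, at 0.11 ± 0.05, H2ac6, an H2A gene, at 0.10 ± 0.05, and H2bc1, the testis H2B, at 0.09 ± 0.05, with adjusted p from 0.639 to 0.698.

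Variants that serve somatic chromatin stayed close to the pool in thymus. H2az1 and H2az2, which encode both forms of H2A.Z, had means of -0.01 ± 0.07 and -0.06 ± 0.17. H3f3a and H3f3b, which both encode H3.3, had means of -0.04 ± 0.03 and -0.01 ± 0.12. Macroh2a1, whose product is enriched on the inactive X chromosome, had a mean of 0.01 ± 0.24, and H1f10, a linker histone, one of -0.09 ± 0.21. None of the 6 had an adjusted p under 0.918. The linker histones H1f6 of spermatocytes, H1f7 of spermatids and H1f8 of the oocyte had means of -0.01, 0.05 and -0.04. H1f0 and H1f9 had no probe under the symbol rule.

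Means near 0 concealed a split between thymus embryos in the clustered genes. The median of the 31 clustered genes was 0.12, -0.14, 0.13, -0.30 and 0.09 in embryos 1 to 5, while that of the 16 variants stayed between -0.03 and 0.03. Of these variants, 8 serve somatic chromatin (H2ax, H2az1, H2az2, H2aj, Macroh2a1, H3f3a, H3f3b and H1f10). Their median was less flat, at -0.03, 0.10, -0.13, 0.04 and 0.00. The difference, clustered minus all 16 variants, was 0.15, -0.13, 0.16, -0.32 and 0.06. This split was seen in the values and then counted, so it carries no test. Above 0 in embryos 1, 3 and 5 and below 0 in embryos 2 and 4 were 17 of 31 clustered genes (54.8%), 2 of 16 variants (12.5%) and 20.2% of all features. Most of the 17 had means of opposite sign in the 2 dye orientations. In Cy5 and Cy3 these were -0.70 and 0.66 for H1f6, 0.34 and -0.31 for H1f4, and -0.36 and 0.27 for H4c14. They were -0.25 and 0.37 for H2bc6 and 0.28 and -0.19 for H2ac8. For H4c4 they were 0.18 and -0.26, for H4f16 0.16 and -0.20 and for H2bc13 0.12 and -0.40. H1f5 (0.04 and 0.25) and H2bc11 (-0.21 and -0.01) kept their sign. These means pool embryos of both signs, so they do not show whether the split holds within a dye. The count holds for values averaged over both dyes.

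The 6 H4 genes, which all encode the same protein, showed the split without exception. H4c4 was at 0.48, -0.23, 0.27, -0.90 and 0.39, and H4f16 at 0.46, -0.21, 0.37, -0.90 and 0.39. These 2 genes, on chromosomes 13 and 6, differed by at most 0.10 in any embryo, and shared hybridisation between their probes was not tested. H4c6, H4c12 and H4c14 followed the same signs with lowest values of -0.83, -0.85 and -0.37, while H4c8 ranged from -0.08 to 0.09 only. The H4 median was 0.41, -0.24, 0.28, -0.84 and 0.31 in embryos 1 to 5. By array it was above 0 on every array of embryos 1, 3 and 5 (0.06 to 0.55) and below 0 on every array of embryo 4 (-1.24 to -0.48). In embryo 2 it was below 0 with the hypomorph in Cy3 (-0.46 and -0.66) and slightly above 0 with it in Cy5 (0.04 and 0.08), so its sign there depends on the orientation.

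Other clustered genes shared the split. H1f5, a linker histone of dividing cells, was at 0.51, -0.13, 0.55, -0.62 and 0.66. H2bc13, an H2B gene, was at 0.20, -0.32, 0.16, -0.76 and 0.22. H2bc11, also for H2B, was at 0.36, -0.14, 0.11, -0.88 and 0.11. Embryo 4 was the lowest in each, and embryos 1, 3 and 5 stayed above 0. By array, H1f5 kept its sign within every embryo, and all 3 genes were below 0 on every array of embryo 4. The sign of H2bc13 turned with the dye in embryo 1 (0.57 and 0.67 in Cy5, -0.31 and -0.11 in Cy3). That of H2bc11 did so in embryo 1 (-0.28 and -0.15 in Cy5, 0.93 and 0.94 in Cy3), embryo 2 (0.14 and 0.23 in Cy5, -0.52 and -0.39 in Cy3) and embryo 5 (-0.52 in Cy5, 0.74 in Cy3). Clustered H1 genes had 4 of 6 with the split, H2A 2 of 7, H2B 3 of 7 and H3 2 of 5. The H3 genes counted were H3c7 and H3c14, whose probes bear it out poorly. H3c7 was at 0.00 in embryo 3, and both its probes were below 0 there (-0.05 and -0.19). For H3c14, 1 probe was at -0.02 and -0.01 in embryos 1 and 3, and the other at 0.10 in both.

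Several measures moved with the split, and their part in it was not tested. Of 11 measured thymocyte markers, 6 had the opposite signs (54.5%, against 11.0% of all features), among them Rag1, a recombinase of the antigen receptor genes, at -0.86, 0.70, -0.68, 0.74 and -0.53, and Dntt, the terminal transferase, at -1.82, 0.62, -1.68, 0.20 and -1.29. The rest did not have these signs. Among them, Cd3d was below 0 in all embryos (-0.26 to -0.15) and Ptcra above 0 in all (0.03 to 0.17). Rag2 was at -0.09 and -0.13 in embryos 2 and 4. The thymocyte median was -0.20, 0.18, -0.10, 0.08 and -0.22. In whole tissue, fewer cells of a type and less RNA per cell cannot be told apart. Array medians as deposited were 0.979 to 1.14 with the hypomorph in Cy5 and -0.854 to -0.673 with it in Cy3 in embryos 2 and 4, 0.34 to 0.654 in Cy5 and -0.746 to -0.477 in Cy3 in embryo 3, and -0.259 to 0.308 over both dyes in embryos 1 and 5. Embryos 2 and 4 thus stood apart from embryo 3 in Cy5 and overlapped it in Cy3. Of the 52 histone spots, 43 end their name in the number 1 or 2, and the medians of all 1152 spots with either ending stayed between -0.03 and 0.04 in every thymus embryo. Opposite signs were also found in 4 of 10 thymic epithelium markers, but in none of 7 erythroid, 6 myeloid or 26 S phase genes. The median of the 7 erythroid markers was 0.08, -0.19, 0.06, -0.30 and 0.19, with the signs of the clustered histones. Alas2, of haem synthesis in red cell precursors, was at 1.02, -0.19, 0.75, -0.03 and 0.96. Hbb-b1, an adult beta globin, was at 0.11, -0.74, 0.66, -0.91 and 0.08. These 2 of 7 showed the full split, and other erythroid markers ran against it. In embryos 2 and 4, Epb42 was at 0.29 and 0.19 and Klf1 at 0.24 and 0.09. Slc4a1 was at 0.72 in embryo 2 and below 0 in embryos 1 and 3, although it was at -0.44 in embryo 4 and 0.54 in embryo 5. The myeloid median was 0.02, -0.17, 0.01, -0.25 and -0.08. Of 6 adipose markers, 2 showed the full split. Adipoq and Car3 were below 0 in all embryos and lowest in embryos 2 and 4 (-1.50 to -1.04). Lpl was at -0.06 and -0.42 in these embryos.

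**Figure D3:**
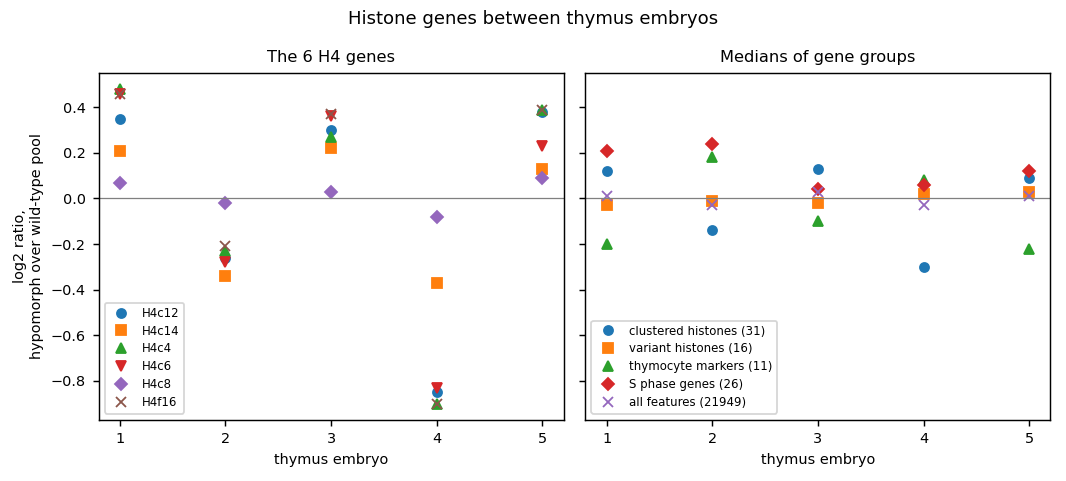
Log2 ratio (vertical axis) in the 5 thymus embryos of the 6 H4 genes (left) and medians of clustered and variant histones, thymocyte markers, S phase genes and all features (right). H4 genes are above 0 in embryos 1, 3 and 5 and below 0 in embryos 2 and 4, and the thymocyte median has the opposite signs.

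In fibroblasts no histone gene passed either (0 of 47), where 1 of 22025 features did (0.00454%). At an unadjusted p under 0.05, 7 were higher (background 8.22%) and 5 were lower (background 7.82%), together 25.5% of the 47, against 16.0% of all features. Signs were shared by all 5 embryos in 6 genes above 0 (background 7.8%) and 5 below 0 (background 9.0%), together 23.4%, against 16.8%. Means beyond 0.5 were found in 4 of 47, H2ax, H2ac22, H2az2 and H2ac1, against 1.67% of all features. Of the 16 variants, 7 had an unadjusted p under 0.05 (43.8%), 4 higher and 3 lower. Of the 31 clustered genes, 5 did (16.1%), 3 higher and 2 lower.

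H2ax was the highest histone in fibroblasts. It was at 1.07, 0.91, 0.54, 0.22 and 0.89 in embryos 1 to 5, above 0 in all. The mean of 0.73 ± 0.34 (n = 5) is 1.65-fold above the pool, with a 95% interval from 0.41 to 1.04, and did not pass (adjusted p = 0.138). It was above 0 on 19 of 20 arrays, between 0.41 and 1.41, and at -0.77 on array 4 of embryo 4. Without that array embryo 4 was at 0.58, the mean was 0.80 ± 0.23 and H2ax passed (adjusted p = 0.0395). When arrays 2 and 4 of embryo 1 were left out as well, the mean was 0.81 and the adjusted p 0.0833 (limma).

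H2az2 and H2az1, the H2A.Z genes, were also above 0 in every embryo. H2az2 was at 0.89, 1.12, 0.64, 0.30 and 0.48, a mean of 0.68 ± 0.32 (1.61-fold, adjusted p = 0.138). Array 4 of embryo 4 was again its only array below 0 (-0.29), and without it the mean was 0.75 ± 0.25 (adjusted p = 0.051). H2az1 was at 0.79, 0.98, 0.39, 0.06 and 0.01, a mean of 0.45 ± 0.43 (adjusted p = 0.271). Embryos 1 and 2 were highest, and in embryo 5 its arrays split by dye. Array 4 of embryo 4 was at -0.66, and without it embryo 4 was at 0.45 and the mean at 0.52 ± 0.38 (adjusted p = 0.159, limma). On arrays titled AYT alone, which leave embryos 1, 4 and 5, the mean was 0.20. H3f3a, for H3.3, was at 0.41, 0.33, 0.27, 0.10 and 0.01, a mean of 0.22 ± 0.17 (adjusted p = 0.222), and H3f3b had a mean of 0.18 ± 0.22 (adjusted p = 0.367). The 2 probes of H3f3b disagreed, with means of 0.39 and -0.03, as did those of Macroh2a1 (-0.01 and -0.24), whose gene mean was -0.12 ± 0.26.

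The H2A genes of the clusters that were lowest in thymus were high here. H2ac22 was at 1.07, 1.56, 0.78, 0.03 and 0.00, a mean of 0.69 ± 0.68 (adjusted p = 0.272). H2ac1 was at 0.76, 0.98, 0.46, 0.28 and 0.19, a mean of 0.53 ± 0.33 (1.45-fold, adjusted p = 0.173), above 0 in all embryos. Both were highest in embryo 2, the order being the same as for H2az2 in embryos 1 to 3. On arrays titled AYT alone the means were 0.26 for H2ac22 and 0.34 for H2ac1. H2bc1, the testis H2B that lies beside H2ac1 in the genome, was at 0.33, 0.48, 0.10, 0.10 and 0.35, a mean of 0.27 ± 0.17 (adjusted p = 0.184).

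Below 0 in all 5 fibroblast embryos were H2al2a, H2al1m, H2bc6, H1f6 and H3c8. H2al2a and H2al1m, variants of the H2A.L family known from spermatids, had means of -0.33 ± 0.21 (adjusted p = 0.183) and -0.26 ± 0.19 (adjusted p = 0.219). H2bc6, an H2B gene, was at -0.30, -0.26, -0.16, -0.10 and -0.36, a mean of -0.23 ± 0.11 (1.18-fold lower, adjusted p = 0.151). H1f6 and H3c8 had means of -0.09 ± 0.08 and -0.09 ± 0.03. In these 5 genes the sign turned with the dye. With the hypomorph in Cy5 the means were 0.19 for H2al2a, 0.16 for H2al1m and 0.05 for H3c8, and with it in Cy3 they were 0.19 for H2bc6 and 0.43 for H1f6. Without the pair of arrays that resembled each other, embryo 2 was above 0 for H2al2a (0.28), H2al1m (0.15) and H1f6 (0.13). It stayed below 0 for H2bc6 (-0.18) and H3c8 (-0.14).

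H1f10, a linker histone also called H1x, split the fibroblast embryos instead. It was at 0.45, -1.22, -1.12, -0.34 and 1.69, a mean of -0.11 ± 1.21 (adjusted p = 0.925). Embryo 5 was high on all its 4 arrays (1.56 to 1.78), while embryos 2 and 3 were low on all of theirs (-1.67 to -0.47). Within embryo 1, arrays 1 and 3 were at 1.84 and 1.81 and arrays 2 and 4 at -0.79 and -1.06, so its mean lies where none of its arrays does. Array 4 of embryo 4 was at 0.49 while its sister arrays lay between -0.76 and -0.52. Without array 4 of embryo 4 and arrays 2 and 4 of embryo 1, the mean turned to 0.10 (adjusted p = 0.947).

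**Figure D4:**
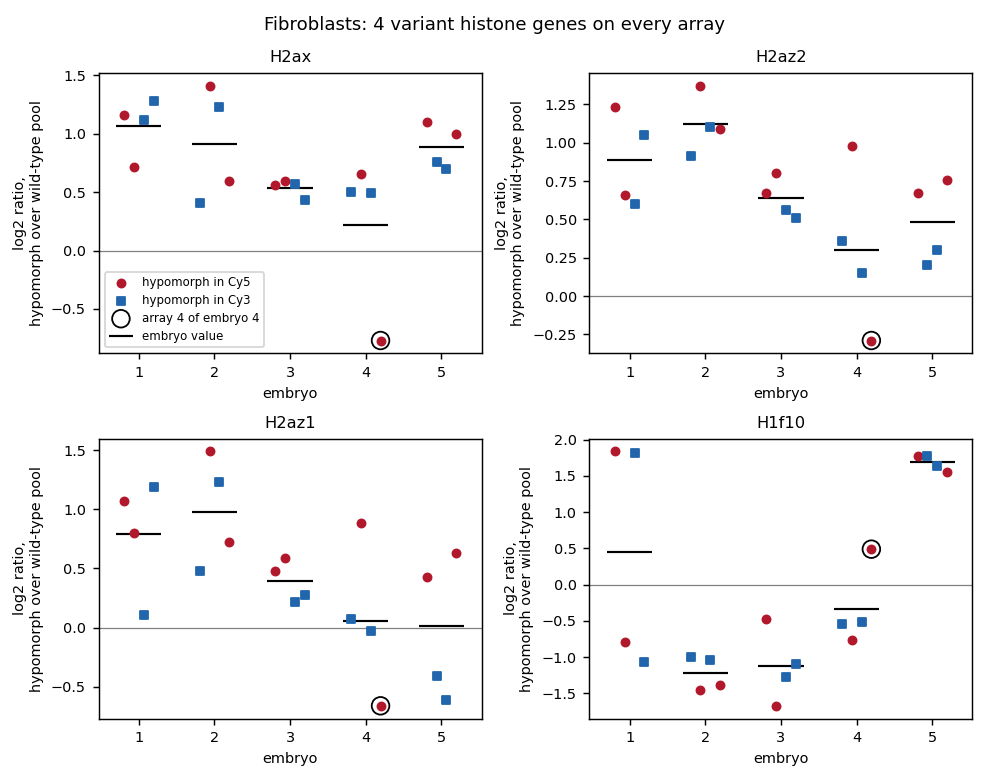
Log2 ratio (vertical axis) of H2ax, H2az2, H2az1 and H1f10 on the 20 fibroblast arrays by embryo and dye of the hypomorph, with the embryo's value as a black line and array 4 of embryo 4 circled. H2ax and H2az2 are above 0 on all arrays but the circled one, and H1f10 divides both the embryos and the arrays of embryo 1.

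Clustered genes divided the fibroblast embryos in another way than in thymus. Their median was -0.13, 0.04, 0.25, 0.03 and -0.32 in embryos 1 to 5, against 0.05, 0.11, 0.06, 0.04 and 0.02 for the variants. The 8 somatic variants alone had medians of 0.43, 0.32, 0.33, 0.08 and 0.10. H2bc4, an H2B gene, was at -0.71, -0.34, 0.38, 0.13 and -1.39. H2bc11 was at -0.67, -0.54, 0.27, 0.24 and -1.06, and H1f2 at -0.68, -0.58, 0.26, -0.05 and -0.87. Embryo 5 was the lowest and embryo 3 the highest in each of these 3, on every array below 0 in embryo 5 and above 0 in embryo 3. H2ac6 stood out in embryo 3, at 1.39, against -0.22 to 0.13 in the others. That value came from the arrays with the hypomorph in Cy3, both titled AYY, at 3.20 and 2.56, while the arrays with it in Cy5 were at -0.02 and -0.17. The AYY array of embryo 1 was at 1.26, that of embryo 2 had no value, and on arrays titled AYT alone the mean was -0.19. By array, the H4 median was above 0 on all 4 arrays of embryo 3 (0.20 to 0.46) and below 0 on all 4 of embryo 5 (-0.63 to -0.29). The split of the thymus embryos was found in none of the 47 genes by fibroblast embryo number, against 1.04% of all features. Embryo numbers do not link animals across tissues. The median of 10 fibroblast markers, collagens and others, was -0.10, 0.04, 0.12, 0.06 and -0.24, with the same embryos lowest and highest as for the clustered genes. Single markers differed. Dcn was highest in embryo 3 (4.63), while Pdgfrb was highest in embryo 5 (0.91). Col1a1 was at -0.52, -1.74, -1.34, -0.52 and 1.34. The median of 7 erythroid markers was 0.05, 0.04, 0.30, -0.02 and -0.03, also highest in embryo 3. The part of either was not tested.

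Thymus minus fibroblasts tests whether the hypomorph's ratio differs between tissues. Tissue and age differ together, so they cannot be told apart here. H2bu2 was the only histone gene that passed, where 90 of 21852 features did (0.412%). Its mean was -1.11 in thymus and -0.01 in fibroblasts, a difference of -1.10 with a 95% interval from -1.53 to -0.67 (adjusted p = 0.0462, limma over 10 embryos). No thymus embryo overlapped a fibroblast embryo. The call sits at the threshold. It was kept without thymus embryo 2 (adjusted p = 0.0376) or fibroblast embryo 4 (0.0407). It was lost without thymus embryo 1 (0.0991), 3 (0.0966), 4 (0.0964) or 5 (0.13), and without fibroblast embryo 1 (0.113), 2 (0.117), 3 (0.084) or 5 (0.0502), with differences from -1.17 to -0.98. Without the pair of arrays that resembled each other it was lost as well (-1.10, adjusted p = 0.0629), and so it was without array 4 of embryo 4 and arrays 2 and 4 of embryo 1 (-1.07, adjusted p = 0.0502). With the arrays as deposited it was -1.10 (adjusted p = 0.0862). With the hypomorph in Cy5 only it was -0.62 (adjusted p = 0.407), and in Cy3 only -1.59 (adjusted p = 0.00748, limma). The fibroblast mean was -0.36 in Cy5 and 0.34 in Cy3, so the size of the difference depends on dye.

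At an unadjusted p under 0.05 the tissues differed in 15 of 47 histone genes (31.9%), against 15.4% of all features. Of these, 10 were lower in thymus (background 8.57%) and 5 higher (background 6.84%). Further from 0 than H2bu2 were H2ac22 and H2ac1. H2ac22 differed by -1.41 (interval -2.37 to -0.45, adjusted p = 0.165), from means of -0.72 in thymus and 0.69 in fibroblasts. H2ac1 differed by -1.21 (adjusted p = 0.127). H2aw, at -0.44 in thymus and 0.19 in fibroblasts, differed by -0.63 (interval -1.01 to -0.26, adjusted p = 0.123). Its fibroblast mean was 0.12 without the pair of arrays that resembled each other, and 0.00 on arrays titled AYT alone. H2az2, at -0.06 in thymus and 0.68 in fibroblasts, differed by -0.74 (interval -1.07 to -0.42, adjusted p = 0.0603), and H2ax, at 0.20 and 0.73 in the same order, by -0.52 (adjusted p = 0.124). Without array 4 of fibroblast embryo 4 both passed, H2az2 with -0.81 (adjusted p = 0.0187) and H2ax with -0.60 (adjusted p = 0.0276).

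Higher in thymus than in fibroblasts were H1f2 with a difference of 0.51 (adjusted p = 0.24), H2al2a with 0.47 (0.0783) and H2al1m with 0.34 (0.116). H2bc4 had 0.40 (0.551), with an interval that spans 0. Its fibroblast mean was -0.39 on all arrays and -0.68 on arrays titled AYT alone. Embryo values of the tissues did not overlap in 6 genes (12.8%, against 3.95% of all features), of which H2bu2, H2ac1 and H2az2 were lower in thymus and H2al1m, H2al2a and H3c8 higher. In fibroblasts H2al1m, H2al2a and H3c8 had means of 0.16, 0.19 and 0.05 in Cy5 and of -0.68, -0.85 and -0.22 in Cy3. Without the pair of arrays that resembled each other, fibroblast embryo 2 was at 0.15 for H2al1m and 0.28 for H2al2a. Both then overlapped the thymus, whose highest embryos were at 0.17 and 0.37. The 6 H4 genes had differences from -0.06 to 0.07, with intervals that spanned -0.57 to 0.60 over all of them.

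**Figure D5:**
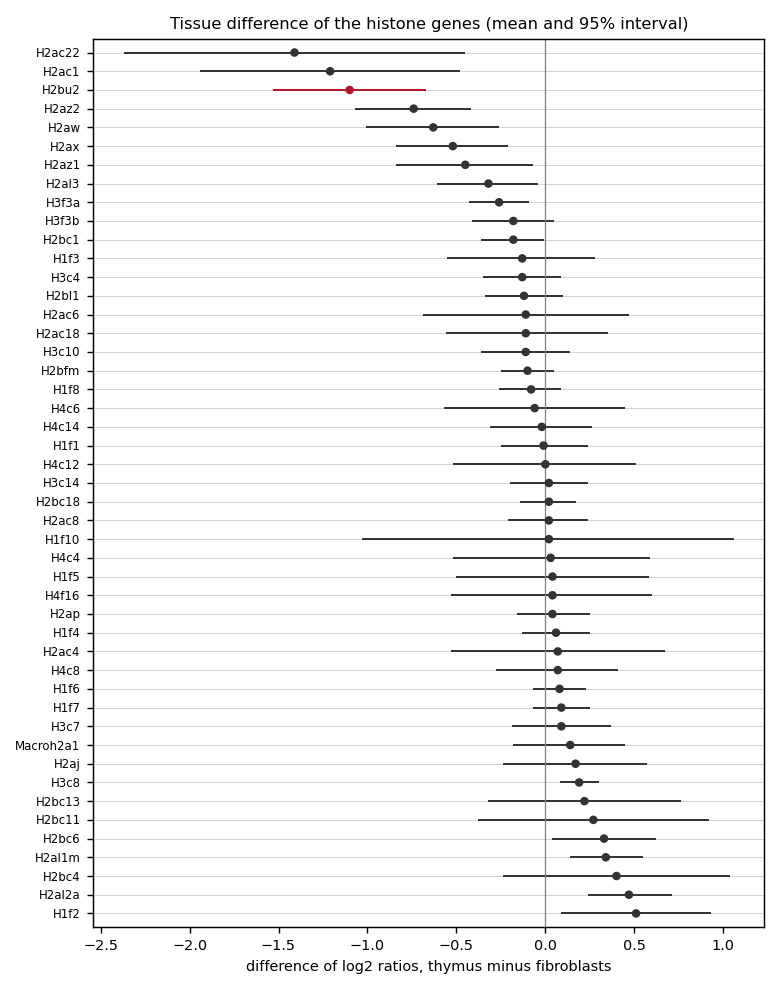
Difference of the log2 ratios, thymus minus fibroblasts (horizontal axis), of the 47 histone genes with 95% intervals from limma over 10 embryos, sorted from lowest to highest. H2bu2, in red, is the gene that passed, and 9 further genes have intervals wholly below 0.

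Genes that make, process and load histones were set beside them, from lists chosen with results of these data known. Of 22 genes for transcription and 3' end processing of histone mRNA, none passed in either tissue. In thymus 20 of 22 had means above 0 (median 0.08), against 54.9% of all features, and 5 had an unadjusted p under 0.05, all higher (background 2.69%). The 3 with the smallest p were Ccne1, a cyclin that drives entry into S phase, at 0.25 ± 0.15, Slbp, the stem-loop binding protein, at 0.15 ± 0.08, and Ccne2 at 0.14 ± 0.08 (adjusted p 0.36 to 0.506). In fibroblasts 15 of 22 were above 0 (median 0.03), against 49.1% of all features, led by Casp8ap2, a factor of histone gene expression, at 0.30 ± 0.14, Lsm11, a subunit of the U7 particle, at 0.15 ± 0.09, and Cstf2, a cleavage factor, at 0.18 ± 0.15 (adjusted p 0.148 to 0.265).

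Of 30 measured chaperones and remodellers none passed either. In thymus 16 of 30 were above 0. Asf1b, an H3-H4 chaperone of dividing cells, was at 0.30, 0.49, 0.30, 0.34 and 0.30, a mean of 0.34 ± 0.08 (adjusted p = 0.0967), close to the threshold and alike in all embryos. Ubn1, of the HIRA complex that deposits H3.3, had a mean of -0.32 ± 0.20 (adjusted p = 0.345), and Chaf1a, of chromatin assembly factor 1, one of 0.17 ± 0.11 (adjusted p = 0.474). In fibroblasts 23 of 30 were above 0, and Atrx, which loads H3.3 at repeats together with Daxx, had a mean of -0.29 ± 0.11 (adjusted p = 0.137). Asf1a and Supt16, a subunit of the chaperone FACT, had means of 0.36 ± 0.19 and 0.43 ± 0.36 (adjusted p = 0.152 and 0.235).

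Genes of DNA replication, which accompany clustered histone genes in S phase, were above 0 in 25 of 26 measured in thymus (median 0.12, against 0.01 over all features, of which 54.9% were above 0), and 12 had an unadjusted p under 0.05, all higher (background 2.69%). None passed. Rrm2, of ribonucleotide reductase, had a mean of 0.24 ± 0.09, Pcna, the replication clamp, 0.21 ± 0.07, and Cdc6, a licensing factor, 0.26 ± 0.17 (adjusted p 0.26 to 0.389). By embryo their median was 0.21, 0.24, 0.04, 0.06 and 0.12, above 0 in embryos 2 and 4 where the clustered histones were below. In fibroblasts 24 of 26 were above 0 (49.1% of all features), led by Rfc3 and Pold1, of the replication machinery, at 0.54 ± 0.32 and 0.45 ± 0.29, and Cdt1, a licensing factor, at 0.41 ± 0.31 (adjusted p 0.166 to 0.212). Their median was 0.50, 0.40, -0.16, 0.09 and 0.46 in fibroblast embryos 1 to 5. It was lowest in embryo 3, where the median of the clustered histones was highest, and high in embryo 5, where that was lowest.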

How the data were processed

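How spots were extracted, background-corrected and normalized is not stated in the labels. The authors deposited 1 log2 ratio per spot, for 25344 spots on 38 arrays. Values were bounded at 16.61. The upper bound was reached 445 times with the hypomorph in Cy5 and never with it in Cy3, the lower bound 423 times with it in Cy3 and never in Cy5, so the sign had already been turned on the Cy3 arrays and the ratio was read as hypomorph over pool. Scale is log2, the values were not centred, and signal over background is unknown, so precision is limited by how many embryos and arrays there are. Bounded values were set to missing and each array was centred on its median. Of the probes, 21111 had 1 platform symbol and 4233 none. Symbols were updated through RefSeq (3974 updated, 17069 current, 68 kept), and probes of 1 symbol were averaged. Tests used limma 3.58.1 in R 4.3.3 (lmFit and eBayes, two-sided) on embryo means over all features, and were tested on simulated data. Members, lists and tests were chosen with earlier results of these data known. Named are H2bu2 and H2ax, up to 6 highest and 6 lowest genes per tissue among those with 1 sign in all 5 embryos, genes that passed, somatic variants, germ line histones, 4 at each end of the tissue difference, and 3 per other list. Further genes were named after their values were seen. These are H2ac22, H2ac18 and H2al3 in thymus and H2ac22 in fibroblasts. For the split between thymus embryos they are the H4 genes, H1f4, H1f5, H2ac8, H2bc6, H2bc11, H2bc13, H3c7 and H3c14. For that between fibroblast embryos they are H2bc4, H2bc11, H1f2 and H2ac6. The others are H2aw for the tissue difference, Rag1, Rag2, Alas2, Hba-a1, Hbb-b1, Epb42, Klf1, Slc4a1, Col1a1, Pdgfrb, Dcn and Eif2s3y. Promoter windows are RefSeq's (GRCm38.p6). Scanner intensities were not used here, so slide and scan could not be tried as batches.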

Additional observations from a re-analysis of the deposited data

Results flagged for a closer look

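H2bu2 was flagged because its ratio of hypomorph over pool differed between the tissues by the test of the difference itself. Its mean was -1.11 in thymus and -0.01 in fibroblasts, and the difference was -1.10 (adjusted p = 0.0462, limma over 10 embryos). It was below 0 in 5 of 5 thymus embryos and in 2 of 5 fibroblast embryos. H2ac6 in fibroblasts was flagged because embryo 3, at 1.39, stood apart from the other 4, which lay between -0.22 and 0.13. Its 2 arrays with the hypomorph in Cy3 were at 3.20 and 2.56, and those with it in Cy5 at -0.02 and -0.17. It was the only one so flagged in 56 tests over the named histone genes and the medians of clustered and variant genes, and chance flags about 1 in 20.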

How the results depend on the processing

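Most alternatives kept the direction of the named genes, and the counts of passing genes moved most with dye. With the hypomorph in Cy5 only, 4881 features passed in thymus, 6298 in fibroblasts and 0 for the tissue difference, and 10, 16 and 0 histone genes did, while 17 and 20 histone genes had an unadjusted p under 0.05 in thymus and fibroblasts. With it in Cy3 only, these were 5244, 8145 and 285 features, 10, 18 and 4 histone genes, and 20 and 24. Each orientation alone leaves dye in the ratio by construction. The median of the fibroblast variants was 0.15 in Cy5 and -0.05 in Cy3. Signs turned in Cy5 for H2az1 (0.33), H2az2 (0.20), H2bc1 (-0.07), H3f3a (0.01) and H3f3b (0.22) in thymus, for H1f7 (0.01), H1f8 (-0.04), H2al1m (0.16), H2al2a (0.19), H3c8 (0.05) and Macroh2a1 (0.14) in fibroblasts, and for H2al1m in the difference (-0.16). In Cy3 they turned for H1f2 (-0.03), H1f6 (0.62), H1f7 (-0.02), H1f8 (0.11) and Macroh2a1 (-0.27) in thymus and for H1f6 (0.43), H2bc6 (0.19), H2bu2 (0.34), H3f3a (-0.07) and H3f3b (-0.02) in fibroblasts. As deposited, 1, 8 and 17 features passed in thymus, fibroblasts and the difference, 0 histone genes in the difference, 30 of 47 histone means in thymus were above 0 against 21 when centred, the thymus variant median was 0.02, and signs turned for H1f6, H2az1 and H3f3b in thymus (0.02 each) and H2bu2 in fibroblasts (0.01). With arrays scaled to equal spread, 13 and 2 features passed in thymus and fibroblasts, 0 histone genes in the difference, and H2az1 was at 0.01 in thymus. Single probes gave 9 features in thymus, bound values kept 0 in fibroblasts, and a minimum of 3 embryos 0 in fibroblasts and 0 histone genes in the difference. Without the arrays that lack a genotype label, 9 thymus features passed and H2az1 (0.06), H3f3a (0.00) and H3f3b (0.02) turned. Arrays counted as replicates, which share embryos, gave 413 and 2110 features and 5 and 8 histone genes in thymus and fibroblasts. Without array 4 of fibroblast embryo 4, which was also the only array with a negative mean correlation, 83 fibroblast features and 1 histone gene passed, and 291 and 3 in the difference. Leaving out arrays 2 and 4 of embryo 1 as well was chosen after seeing the data, and gave 7 fibroblast features, 2 histone genes in the difference and H1f10 at 0.10. Leaving out array 4 of embryo 1 and array 3 of embryo 2, which resembled each other, was also chosen after seeing the data, and gave 0 fibroblast features, 41 features and 0 histone genes in the difference and H1f10 at 0.04. Fibroblast arrays titled AYT alone, which leave out embryos 2 and 3, gave 0 features, H1f10 at 0.84, H3f3b at -0.01 and Macroh2a1 at 0.07. Apart from dye and array choice, the cause of these changes was not tested.

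Leaving out 1 embryo at a time gave 0 to 4 passing features in thymus, 0 to 38 in fibroblasts (38 without embryo 4) and 1 to 374 in the difference (374 without fibroblast embryo 4). Passing histone genes stayed at 0 in either tissue and were 0 to 3 in the difference, and those with an unadjusted p under 0.05 numbered 3 (without embryo 5) to 9 in thymus and 7 (without embryo 2) to 17 in fibroblasts. Signs turned in thymus for H1f6 (-0.03 to 0.03), H2az1 (-0.02 to 0.02), H2az2 (-0.11 to 0.01), H3f3b (-0.05 to 0.03) and Macroh2a1 (-0.05 to 0.08), and in fibroblasts for H1f10 (-0.56 to 0.17), H1f8 (0.00 to 0.09) and H2bu2 (-0.06 to 0.05). Medians of the clustered genes ran from -0.07 to 0.07 in thymus and -0.08 to 0.02 in fibroblasts, and those of the variants from -0.04 to -0.01 and 0.02 to 0.06.

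Embryos of 12.5 and 18.5 dpc cannot be the same animal, and embryos with the same number did not deviate together (r of -0.035 to 0.088 across features, best with its own number in 1 of 5), so the tissues were not taken as paired. With the number as a replicate block, 1 feature and 0 histone genes passed in the difference, and H2bu2 was at -1.10 (adjusted p = 0.0768, limma).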
